A study of Mus musculus with 6 samples.

Results

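The genes described here are the aminoacyl-tRNA synthetases and their scaffold proteins, 39 of the 54532 genes in the deposited table. They were taken by name and biotype: protein-coding genes named with a capital letter followed by ars, with or without a final 1 or 2, together with Eprs, Farsa, Farsb, Aimp1 and Aimp2. The 39 comprise 20 synthetases of the cytosol, 17 of the mitochondrion (names ending in ars2) and the 2 scaffold genes Aimp1 and Aimp2. Bulk RNA of the injured liver lobe was sequenced in mice, following warm ischemia of 1 h, in which blood flow is stopped, and reperfusion of 12 h. Every library came from C57BL/6 mice that had undergone this injury, and no uninjured liver is among the libraries used here. The first group, IRF8-cKO, lacks interferon regulatory factor 8 (IRF8) in hepatocytes and holds 3 libraries, while the second, WT, is wild type and holds 3 libraries too. The sources used here do not give the promoter behind the deletion, the age of the mice or whether each library is a separate animal, so p-values measure the spread between these libraries, which may be technical. In a bulk sample, fewer cells of a type and less RNA per cell cannot be told apart.

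Aminoacyl-tRNA synthetases join each amino acid to its tRNA, and so supply the ribosome with charged tRNAs. In animals a cytosolic set serves cytosolic ribosomes and a separate set, encoded by other nuclear genes, serves the ribosomes of mitochondria, while Gars and Kars each encode both forms. Several cytosolic enzymes sit in a multi-synthetase complex held together by AIMP1, AIMP2 and EEF1E1. When amino acids are scarce or the endoplasmic reticulum is stressed, the transcription factor ATF4 raises the transcripts of many, but not all, cytosolic synthetases. The liver relies on them for a heavy output of secreted plasma proteins.

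Gene counts summed to between 16385964 and 16805830 reads in IRF8-cKO libraries and between 14758237 and 16010064 reads in WT libraries. CPM below are counts per library total, scaled to CPM after adjustment for composition. Each list of values stands in the order IRF8-cKO-71, IRF8-cKO-88, IRF8-cKO-106 for IRF8-cKO and WT-14, WT-44, WT-77 for WT. Irf8, the targeted gene, stood at 5.67, 6.72 and 4.17 CPM in IRF8-cKO livers, against 9.32, 9.50 and 10.3 CPM in WT livers. The groups did not overlap, and the log2 fold change was -0.81 (SE 0.33), which missed the threshold over all genes (edgeR adjusted p = 0.174). Of 13134 genes tested, 182 passed an adjusted p of 0.05, 59 higher and 123 lower in IRF8-cKO (39 higher and 43 lower with library totals alone, under which all genes tested had a median of 0.25 in place of 0.03). That number depends on single libraries and on the tool, and it was 1205 without IRF8-cKO-88, 20 without IRF8-cKO-106, 1 without WT-44 and 0 without WT-77 (1988 genes at an unadjusted p under 0.05 there).

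Most synthetases had a higher mean level in IRF8-cKO than in WT livers, but none of them passed the threshold over all genes. In the edgeR quasi-likelihood test 0 of 39 genes passed in either direction, where 1.39% of all genes tested did (0.449% higher and 0.937% lower), and the smallest adjusted p among the 39 was 0.0616. At an unadjusted p under 0.05, 11 of 39 were higher and 0 lower in IRF8-cKO, against 24.1% of all genes tested in either direction and 12.1% higher. A positive log2 fold change was seen for 35 of 39 genes, against 51.5% of all genes tested, and the median was 0.51, against 0.03 for all genes tested. In 17 of the 39 genes (43.6%) each IRF8-cKO library lay above each WT library, against 14.4% of all genes tested, and in 0 of 39 each lay below, against 14.5%. Over the alternative settings the positive values numbered 32 to 36 and the genes higher without overlap 16 to 23. The share of all genes tested that was higher without overlap was then 9.62% to 23.4%, and 16.8% to 23.4% with 1 library left out. In 3 of those settings, without IRF8-cKO-71, without IRF8-cKO-88 and without WT-14, 1 of the 39 genes was lower without overlap. Of all genes tested, 20.7%, 22.2% and 22.3% were lower without overlap in these settings, in the same order. All 39 genes passed the filter on low counts. DESeq2, which called 10.8% of all genes tested, called 4 of the 39, namely Cars2, Iars, Nars and Tars, all 4 higher in IRF8-cKO, against 4.67% of all genes called higher. Without the low-count filter, edgeR called the same 4 genes, where 7.15% of all genes were called and 3.39% called higher. Limma-voom called 0 of 39, against 0.845% of all genes. The share called by DESeq2 in either direction is close to its background. With library totals 33 of 39 genes lay above the median of all genes, against 34 of 39 with composition scaling.

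**Figure D1:**
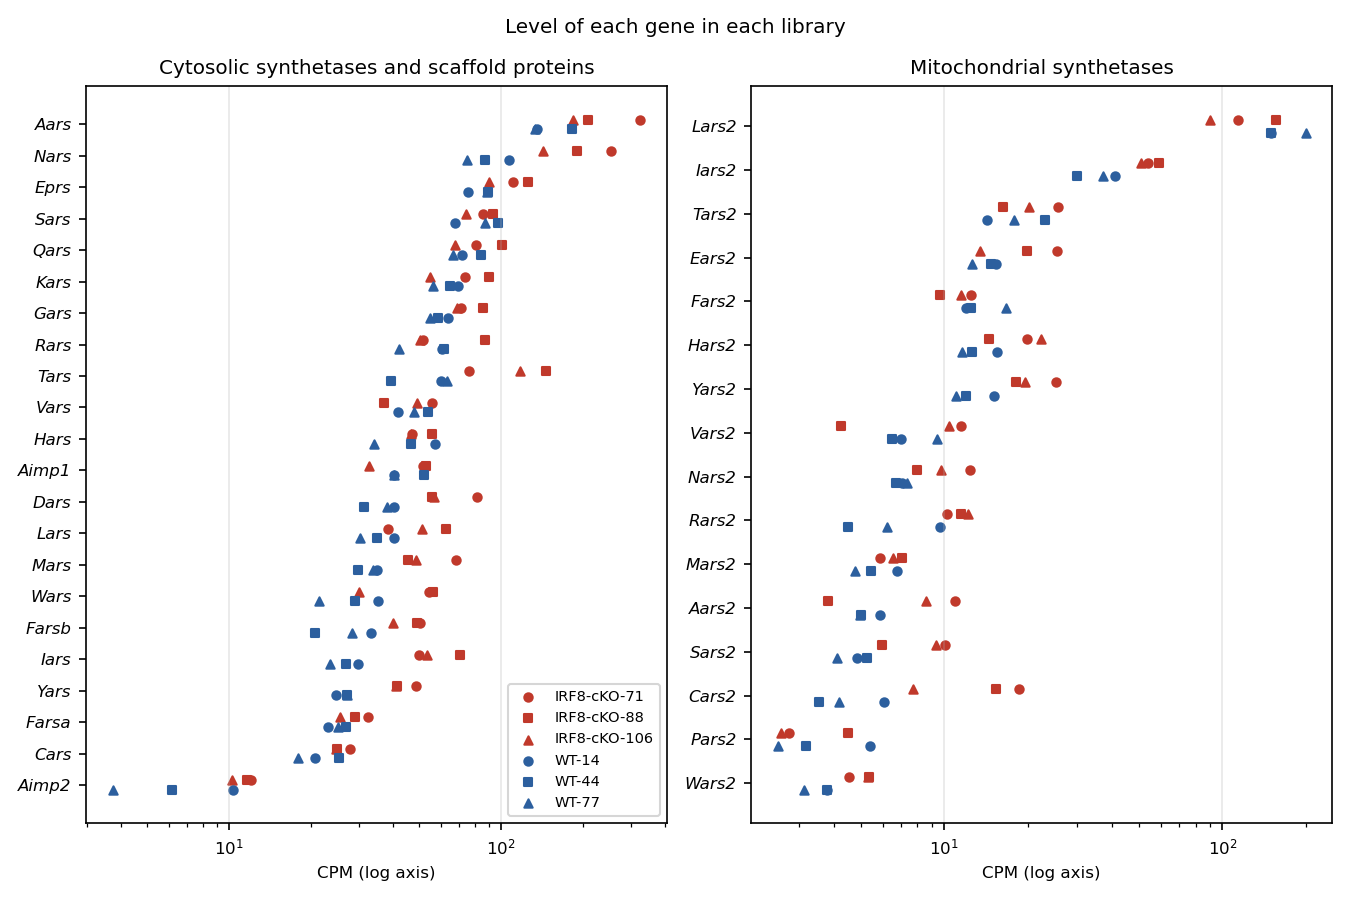
Level of 38 of the 39 genes in each library, in CPM on a log axis, with the cytosolic and scaffold genes on the left and the mitochondrial genes on the right, sorted by their WT mean. Points are single libraries, red for IRF8-cKO and blue for WT; for Iars, Yars, Dars, Cars2 and Iars2, among others, the 3 red points lie right of the 3 blue ones, while Lars2 is the top mitochondrial gene and lies mostly the other way.

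The 39 genes span a wide range of levels. Per kilobase of annotated exon, Nars, for asparagine, stood highest of the 39, with 74.3 CPM per kb in IRF8-cKO and 34.0 CPM per kb in WT livers. Mars2, the mitochondrial methionine enzyme, was lowest on that scale, with 0.573 CPM per kb in IRF8-cKO and 0.501 CPM per kb in WT livers. The annotated length is the union of all exons of a gene, retained introns included, so genes such as Eprs (18102 bases) and Mars2 (11294 bases) are set low by it. For Nars (chromosome 18, 64499665 to 64516557, minus strand, mm10) the table gives 2632 bases, against 4355 in GENCODE M21. Summed over the 20 cytosolic synthetases the level was 1680, 1660 and 1320 CPM in IRF8-cKO livers and 1090, 1120 and 994 CPM in WT livers. Each IRF8-cKO sum was above each WT sum. Reads of the 39 genes made up 0.205%, 0.206% and 0.219% of all reads in IRF8-cKO livers and 0.157%, 0.116% and 0.131% in WT livers, a measure that uses no scaling factor and likewise did not overlap.

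The cytosolic synthetases with the lowest p-values were those for isoleucine, asparagine and threonine, with fold changes of 2.17, 2.18 and 2.09 for IRF8-cKO over WT. Iars (chromosome 13, 49682100 to 49734267, plus strand, mm10), the isoleucine enzyme and a member of the complex, stood at 49.9, 70.4 and 53.3 CPM in IRF8-cKO livers, against 29.7, 26.8 and 23.5 CPM in WT livers. The lowest IRF8-cKO value lay well above the highest WT value, and the means were 57.9 ± 11.0 CPM in IRF8-cKO and 26.6 ± 3.14 CPM in WT livers (SD, n = 3 each). Its log2 fold change was 1.12 (SE 0.26, edgeR adjusted p = 0.0616). Nars stood at 253, 191 and 143 CPM in IRF8-cKO livers, against 107, 87.2 and 74.9 CPM in WT livers (log2 fold change 1.13, SE 0.31, adjusted p = 0.0855). IRF8-cKO-71 was highest for Nars, whereas IRF8-cKO-88 was highest for Iars and Tars in CPM. By unscaled reads IRF8-cKO-106 was highest for Iars and Tars. Tars (chromosome 15, 11382301 to 11399665, minus strand), the threonine enzyme, stood at 76.2, 147 and 117 CPM in IRF8-cKO livers, against 60.0, 39.5 and 63.4 CPM in WT livers (log2 fold change 1.06, SE 0.33, adjusted p = 0.1). The 3 genes did not overlap between groups, but none of them passed over all genes tested.

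The promoter windows of 5 cytosolic synthetases hold the element to which ATF4 and its C/EBP partners are known to bind, and these 5 are shown because they are the ones that hold it. Each of the 5 was also higher in every IRF8-cKO library than in every WT library. For Aars this was by a narrow margin, with 184 CPM in IRF8-cKO-106 and 183 CPM in WT-44. The windows run from 250 bases before to 50 bases after the RefSeq start in build GRCm38.p6, 5′ to 3′ on the gene's strand, with capitals on each match to TGATGNAA on either strand. They lie at chr13:49681880-49682179 for Iars, chr15:11399609-11399908 for Tars (minus strand), chr4:129189653-129189952 for Yars, chr8:111033592-111033891 for Aars and chr6:55037751-55038050 for Gars.
Iars: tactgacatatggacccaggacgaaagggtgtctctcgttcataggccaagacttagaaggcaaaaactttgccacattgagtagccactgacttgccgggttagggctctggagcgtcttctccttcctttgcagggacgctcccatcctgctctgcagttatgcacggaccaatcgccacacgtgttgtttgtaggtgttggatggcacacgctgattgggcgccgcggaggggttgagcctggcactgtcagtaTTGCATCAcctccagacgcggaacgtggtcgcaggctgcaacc
Tars: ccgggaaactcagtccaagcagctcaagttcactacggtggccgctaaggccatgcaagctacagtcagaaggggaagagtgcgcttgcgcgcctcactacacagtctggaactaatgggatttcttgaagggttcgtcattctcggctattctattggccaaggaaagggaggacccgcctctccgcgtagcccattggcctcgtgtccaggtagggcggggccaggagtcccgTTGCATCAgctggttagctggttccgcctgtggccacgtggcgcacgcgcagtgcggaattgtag
Yars: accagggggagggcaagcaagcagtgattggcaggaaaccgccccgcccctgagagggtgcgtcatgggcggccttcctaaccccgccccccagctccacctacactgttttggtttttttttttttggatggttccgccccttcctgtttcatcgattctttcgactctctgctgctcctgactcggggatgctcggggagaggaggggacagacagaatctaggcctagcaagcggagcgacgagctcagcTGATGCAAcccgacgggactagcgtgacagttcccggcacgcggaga
Aars: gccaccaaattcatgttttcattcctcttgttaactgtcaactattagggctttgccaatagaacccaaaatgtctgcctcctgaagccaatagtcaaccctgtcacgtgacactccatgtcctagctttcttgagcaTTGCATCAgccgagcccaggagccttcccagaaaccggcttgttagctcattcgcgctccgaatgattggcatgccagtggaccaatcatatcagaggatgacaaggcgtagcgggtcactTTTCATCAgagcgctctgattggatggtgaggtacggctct
Gars: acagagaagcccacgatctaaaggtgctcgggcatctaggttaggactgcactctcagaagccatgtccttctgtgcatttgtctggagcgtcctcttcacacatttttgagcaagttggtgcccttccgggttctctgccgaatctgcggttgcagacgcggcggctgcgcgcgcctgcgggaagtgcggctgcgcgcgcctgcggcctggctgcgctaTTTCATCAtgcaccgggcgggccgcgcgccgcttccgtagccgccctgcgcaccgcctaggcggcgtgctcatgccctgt
RefSeq windows were matched for 28 of the 39 genes. Among the cytosolic genes, Nars, Mars, Wars, Lars, Cars, Rars, Hars and Vars had no matched window and were not searched. Their log2 fold changes ran from -0.02 for Vars to 1.13 for Nars, and they are in neither side of the splits below. The element was found in 5 of 12 cytosolic genes with a window, in 0 of 14 mitochondrial genes and in 0 of 2 scaffold genes, against 3.97% of all 32851 windows of the same length. It begins at position 8 after the start in Iars and 4 in Yars, at 15 and 30 bases before the start in Tars and Gars, and at both 112 bases before and 10 after in Aars. The last bases of each window were looked for in GENCODE M21 transcripts of the same gene. For Aars, Tars2, Sars, Kars, Dars and Sars2 they were not found near a transcript start. In Aars and Tars2 they lay further inside a transcript. These windows stay in the counts, so their matches or lack of matches may not concern the annotated start. The median log2 fold change was 0.73 over the 5 cytosolic genes with a match and 0.21 over the 7 without, and 5 of 5 and 3 of 7 did not overlap between groups. The other motifs searched on both strands were the E-box CACGTG, found in Aars, Farsb, Iars, Tars and Ears2 (7.15% of all windows), and the interferon-stimulated element core, found in Qars (3.44% of all windows), with 0 overlapping matches. For the E-box the median was 0.91 over the 4 cytosolic genes with a match and 0.28 over the 8 without, and 4 of 4 and 4 of 8 did not overlap between groups. Aars, Iars and Tars hold both the ATF4 element and the E-box, so the splits by motif share genes. A match is a description of these letters, and the motifs were chosen with the fold changes known.

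**Figure D2:**
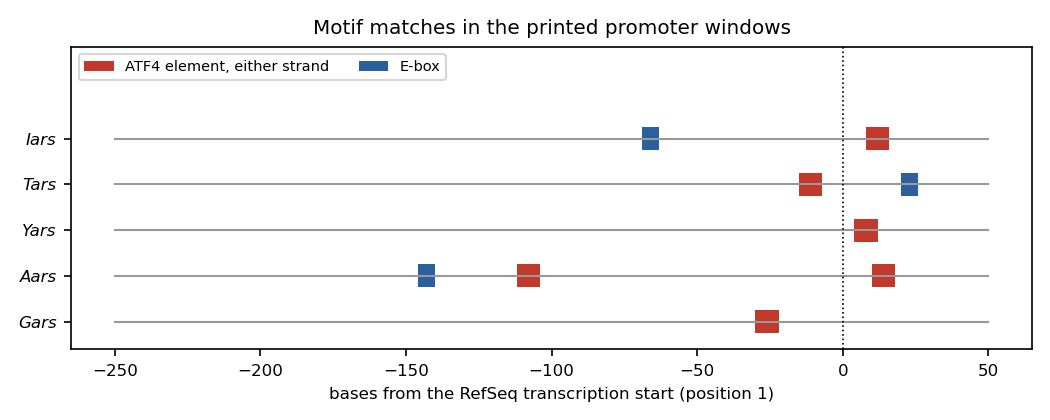
Positions of ATF4 element matches (red) and E-box matches (blue) in the 5 printed promoter windows, in bases from the RefSeq transcription start. All 5 windows hold a red match within 30 bases of the start, and Aars holds another at 112 bases before it.

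Of the 13 cytosolic synthetases known as ATF4 targets from work in stressed mouse cells (Aars, Cars, Eprs, Gars, Iars, Lars, Mars, Nars, Sars, Tars, Vars, Wars and Yars), 0 passed the test, 12 had positive log2 fold changes and 8 did not overlap between groups, with a median of 0.67. The other 7 (Dars, Farsa, Farsb, Hars, Kars, Qars and Rars) gave 0 calls, 7 positive values, 2 without overlap and a median of 0.21. The 13 were not uniform, since Sars, for serine, stood at 86.0, 93.5 and 74.1 CPM in IRF8-cKO livers and 67.8, 97.7 and 87.3 CPM in WT livers. Vars, for valine, stood at 37.2 to 55.7 CPM in IRF8-cKO and 41.6 to 53.8 CPM in WT livers. For both, the range of one group lay inside that of the other, and Vars turned positive with library totals (0.23).

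**Figure D3:**
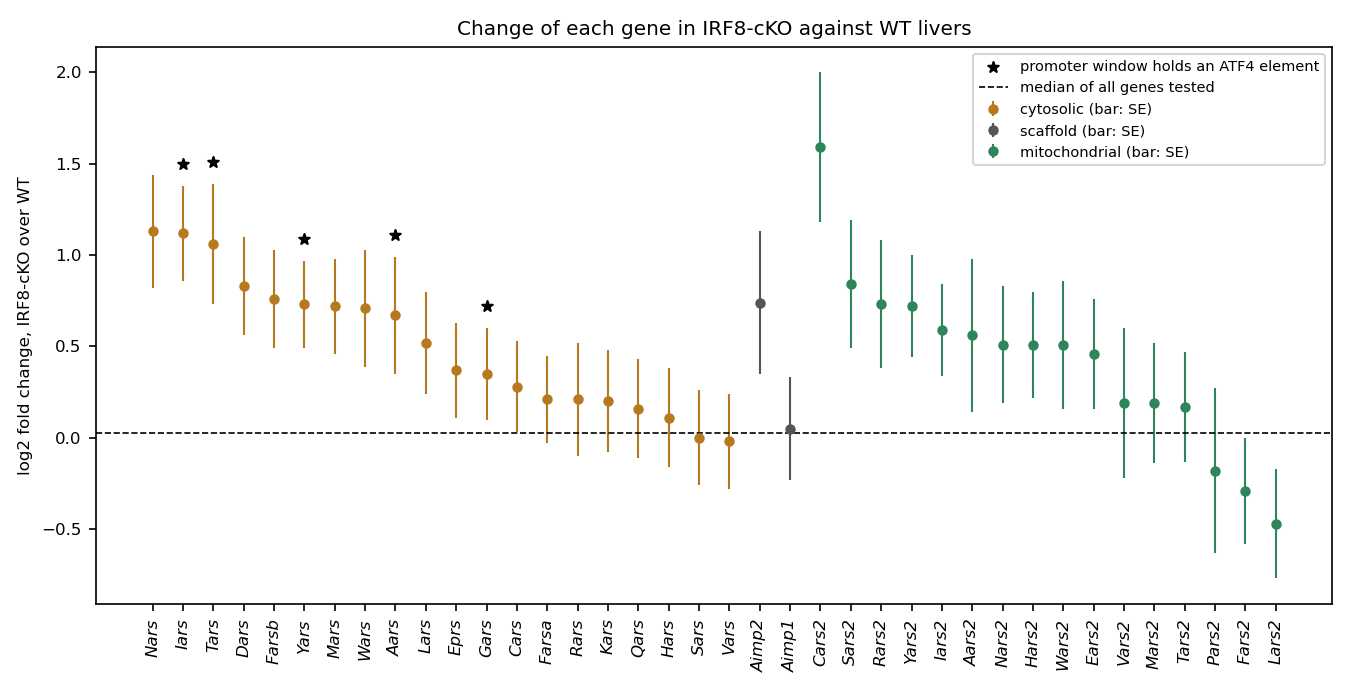
Log2 fold change of 38 of the 39 genes in IRF8-cKO over WT with its standard error (3 libraries per group), by compartment and size, with the median of all genes tested (0.03) as a dashed line. Stars mark the 5 genes whose promoter window holds an ATF4 element. Genes without a matched window, such as Nars, were not searched and bear no star. The cytosolic values fall from 1.13 for Nars to -0.02 for Vars and the mitochondrial ones from 1.59 for Cars2 to -0.47 for Lars2.

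Yars, the tyrosine enzyme, had close values within each group. It stood at 48.6, 41.3 and 40.9 CPM in IRF8-cKO livers and at 24.6, 27.1 and 27.1 CPM in WT livers (log2 fold change 0.73, SE 0.24, adjusted p = 0.116), so that every IRF8-cKO library was above every WT library. Dars, the aspartate enzyme, stood at 81.8, 55.8 and 56.5 CPM in IRF8-cKO livers, against 40.3, 31.3 and 38.0 CPM in WT livers (log2 fold change 0.83, SE 0.27, adjusted p = 0.117). IRF8-cKO-71 was the high library for Dars, as it was for Nars, Aars and Mars, and every IRF8-cKO value of Dars lay above every WT value. Farsb, the beta subunit of the phenylalanine enzyme, stood at 50.3, 48.9 and 40.2 CPM in IRF8-cKO livers, against 33.2, 20.6 and 28.4 CPM in WT livers (log2 fold change 0.76, SE 0.27, adjusted p = 0.137). Its alpha subunit partner Farsa overlapped between groups, at 25.5 to 32.4 CPM in IRF8-cKO and 23.0 to 26.9 CPM in WT livers (log2 fold change 0.21). A difference between the subunits was not tested.

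Within the multi-synthetase complex the enzymes and scaffold proteins were uneven. Of its 10 members measured here (Eprs, Iars, Lars, Qars, Mars, Kars, Rars, Dars, Aimp1 and Aimp2), 10 had positive log2 fold changes, from 0.05 to 1.12 with a median of 0.45, 4 did not overlap and 0 passed. The 12 cytosolic enzymes outside the complex had a median of 0.51, 6 without overlap and 0 passing. Eprs, the joint glutamate and proline enzyme, stood at 111, 126 and 90.5 CPM in IRF8-cKO livers, against 75.8, 89.5 and 88.8 CPM in WT livers (log2 fold change 0.37, SE 0.26, adjusted p = 0.403). The groups of Eprs did not overlap, though IRF8-cKO-106 and WT-44 lay close together. Aimp1, which binds tRNA and the arginine enzyme, stood at 51.6, 52.9 and 32.8 CPM in IRF8-cKO livers and at 40.4, 52.2 and 40.3 CPM in WT livers, with full overlap (log2 fold change 0.05, SE 0.28, adjusted p = 0.935). Aimp2, the core scaffold protein, stood at 12.0, 11.6 and 10.2 CPM in IRF8-cKO livers and at 10.3, 6.13 and 3.72 CPM in WT livers (log2 fold change 0.74, SE 0.39, adjusted p = 0.272), so that IRF8-cKO-106 lay just under WT-14. The log2 fold change of Aimp2 was 1.20 without WT-14 and 0.44 without WT-77. Of the exon bases of Aimp2, 29.4% are shared with Eif2ak1 on the opposite strand, and without the strand setting its reads are uncertain. The third scaffold gene, Eef1e1, which is outside the naming rule, lay the other way, at 15.6, 16.6 and 17.2 CPM in IRF8-cKO livers, against 21.4, 29.4 and 23.8 CPM in WT livers. Its groups did not overlap, and its log2 fold change was -0.59 (SE 0.25, adjusted p = 0.191).

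Wars, the tryptophan enzyme, known in human cells as a gene induced by interferon gamma, stood at 54.5, 56.3 and 30.0 CPM in IRF8-cKO livers, against 35.4, 29.1 and 21.3 CPM in WT livers. IRF8-cKO-106 lay within the WT range, and the log2 fold change was 0.71 (SE 0.32, adjusted p = 0.209). In a list of 16 interferon-gamma-induced genes 0 passed, 5 had positive and 11 negative values, from -1.67 to 1.25, and the median was -0.27. In the list 5 were lower without overlap, against 14.5% of all genes tested, and 0 higher, against 14.4%. The 2 with the lowest p were Gbp3 at -1.67 (adjusted p = 0.0539) and Cxcl9 at -1.22 (adjusted p = 0.0987). Gars, for glycine, stood at 71.3, 86.1 and 69.0 CPM in IRF8-cKO livers and at 63.8, 58.6 and 54.9 CPM in WT livers, without overlap but with a small log2 fold change of 0.35 (SE 0.25, adjusted p = 0.399). Kars, for lysine, stood at 73.8, 90.6 and 54.8 CPM in IRF8-cKO livers and at 69.3, 64.9 and 56.0 CPM in WT livers (log2 fold change 0.20, SE 0.28, adjusted p = 0.683). Qars, for glutamine, stood at 80.7, 101 and 67.7 CPM in IRF8-cKO livers and at 71.6, 84.5 and 66.8 CPM in WT livers (log2 fold change 0.16, SE 0.27, adjusted p = 0.742). Both overlapped, with IRF8-cKO-88 the high library. Kars stood at a log2 fold change of 0.02 and Qars at one of 0.0015 when that library was left out.

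Aars, for alanine, and Mars, for methionine, did not overlap between groups. Aars stood at 184 to 326 CPM in IRF8-cKO livers and 133 to 183 CPM in WT livers. Its log2 fold change was 0.67, and 0.39 without IRF8-cKO-71. Of the exon bases of Aars, 14.3% are shared with Exosc6 on the same strand. Exosc6 had 0 reads in every library, and how reads on shared bases were counted is not stated. The reads of Aars are therefore uncertain in that part. Mars stood at 45.6 to 68.2 CPM in IRF8-cKO livers and 29.7 to 35.1 CPM in WT livers (log2 fold change 0.72). Lars, Cars, Rars and Hars, for leucine, cysteine, arginine and histidine, overlapped, with log2 fold changes of 0.52, 0.28, 0.21 and 0.11. Of the 20 cytosolic enzymes, 10 did not overlap. The library order within IRF8-cKO was uneven as well in CPM. Of the 20, 11 were highest in IRF8-cKO-88, 9 in IRF8-cKO-71 and 0 in IRF8-cKO-106, which was lowest for 14. This order depends on the composition scaling, with factors of 0.966 for IRF8-cKO-71, 0.99 for IRF8-cKO-88 and 1.32 for IRF8-cKO-106. By unscaled reads, IRF8-cKO-106 was highest for Cars, Farsa, Farsb, Gars, Hars, Iars, Lars, Sars, Tars, Vars and Yars, and not for the others.

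The mitochondrial synthetases had 14 of 17 positive log2 fold changes, 7 without overlap and a median of 0.51, against 0.45 for the cytosolic set. Without IRF8-cKO-71 the mitochondrial median was 0.27 and the cytosolic one 0.40, and the order of the 2 sets turned round. Cars2, the mitochondrial cysteine enzyme (chromosome 8, 11513977 to 11550783, minus strand), had the largest fold change of the 39 genes. It stood at 18.5, 15.4 and 7.69 CPM in IRF8-cKO livers, against 6.07, 3.54 and 4.19 CPM in WT livers (log2 fold change 1.59, SE 0.41, adjusted p = 0.0739). Its IRF8-cKO libraries spread 2.41-fold between lowest and highest, and IRF8-cKO-106 lay close to WT-14. Yars2, for tyrosine, stood at 25.3, 18.1 and 19.5 CPM in IRF8-cKO livers, against 15.1, 12.0 and 11.0 CPM in WT livers (log2 fold change 0.72, SE 0.28, adjusted p = 0.161). Iars2, for isoleucine, stood at 53.8, 58.9 and 51.0 CPM in IRF8-cKO livers, against 41.1, 30.0 and 37.3 CPM in WT livers (log2 fold change 0.59, SE 0.25, adjusted p = 0.186). Of its exon bases 22.9% are shared with Rab3gap2 on the opposite strand. Sars2, for serine, stood at 10.1, 5.98 and 9.36 CPM in IRF8-cKO livers, against 4.84, 5.27 and 4.12 CPM in WT livers (log2 fold change 0.84, SE 0.35, adjusted p = 0.186), with IRF8-cKO-88 next to the WT range. Rars2, Nars2 and Wars2 also did not overlap, with log2 fold changes of 0.73, 0.51 and 0.51, and without IRF8-cKO-71 that of Nars2 was 0.34.

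The mitochondrial enzymes differed among IRF8-cKO livers. In CPM, 9 of the 17 stood lowest of their group in IRF8-cKO-88, and 10 stood highest in IRF8-cKO-71. The same 9 were lowest in IRF8-cKO-88 by unscaled reads, but the order at the top depends on the scaling. Of the 10, Yars2, Sars2, Nars2, Aars2, Fars2, Tars2 and Vars2 had more unscaled reads in IRF8-cKO-106 than in IRF8-cKO-71, and the others did not. Aars2, for alanine, spread 2.85-fold within IRF8-cKO, at 10.9, 3.82 and 8.62 CPM in IRF8-cKO livers and at 5.88, 5.01 and 4.98 CPM in WT livers (log2 fold change 0.56). Vars2, for valine, stood at 11.5, 4.26 and 10.4 CPM in IRF8-cKO livers and at 6.99, 6.48 and 9.43 CPM in WT livers (log2 fold change 0.19). The log2 fold change without IRF8-cKO-71 and without IRF8-cKO-88 was 0.25 and 0.88 for Aars2 and -0.05 and 0.52 for Vars2. For both genes IRF8-cKO-88 lay below every WT library and the other 2 IRF8-cKO libraries above every WT library. Hars2, Ears2, Tars2 and Mars2 overlapped, with log2 fold changes between 0.17 and 0.51, and Pars2 and Fars2 had negative values of -0.18 and -0.29. Lars2, the mitochondrial leucine enzyme, had the highest level of the 17 and the lowest log2 fold change. It stood at 114, 156 and 90.3 CPM in IRF8-cKO livers and 150, 149 and 199 CPM in WT livers (log2 fold change -0.47, SE 0.30, adjusted p = 0.351). Without IRF8-cKO-106 its log2 fold change was -0.29, and without IRF8-cKO-88 it was -0.70. IRF8-cKO-88 lay within the WT range, and the gene was singled out after its values were seen. Summed over all 17, the level was 376, 362 and 308 CPM in IRF8-cKO livers and 325, 303 and 357 CPM in WT livers, with overlap. The summed level of the other 16 was 262, 206 and 217 CPM in IRF8-cKO livers and 175, 154 and 157 CPM in WT livers, without overlap.

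The cytosolic and mitochondrial enzymes for the same amino acid were compared by value. Over 18 pairings of a cytosolic with a mitochondrial gene, the cytosolic log2 fold change was above the mitochondrial one in 12 and below it in 6, and 13 pairings had both values positive. The ratio of cytosolic to mitochondrial reads did not overlap between groups in 5 of the 18 pairings. It was higher in IRF8-cKO for Farsa and Farsb over Fars2, Iars over Iars2 and Lars over Lars2, and lower for Cars over Cars2. Farsa and Farsb share Fars2, so these pairings are not separate. No background was taken for ratios, and 28.9% of single genes tested did not overlap in either direction. Reads of Cars per read of Cars2 were 1.51, 1.62 and 3.21 in IRF8-cKO livers, against 3.40, 7.15 and 4.27 in WT livers. Reads of Lars per read of Lars2 were 0.337, 0.403 and 0.568 in IRF8-cKO livers, against 0.270, 0.235 and 0.152 in WT livers. Hars and Hars2 lie head to head and share 195 exon bases, so their counts are uncertain. Of the exon bases of Fars2, 8.72% are shared with Nrn1 and 2% with Lyrm4. Cars2 shares 5.83% with Naxd, Iars2 22.9% with Rab3gap2 and Farsb 9.47% with Sgpp2. All of these lie on the opposite strand, so without the strand setting these counts are uncertain too. No difference within a pairing was tested.

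**Figure D4:**
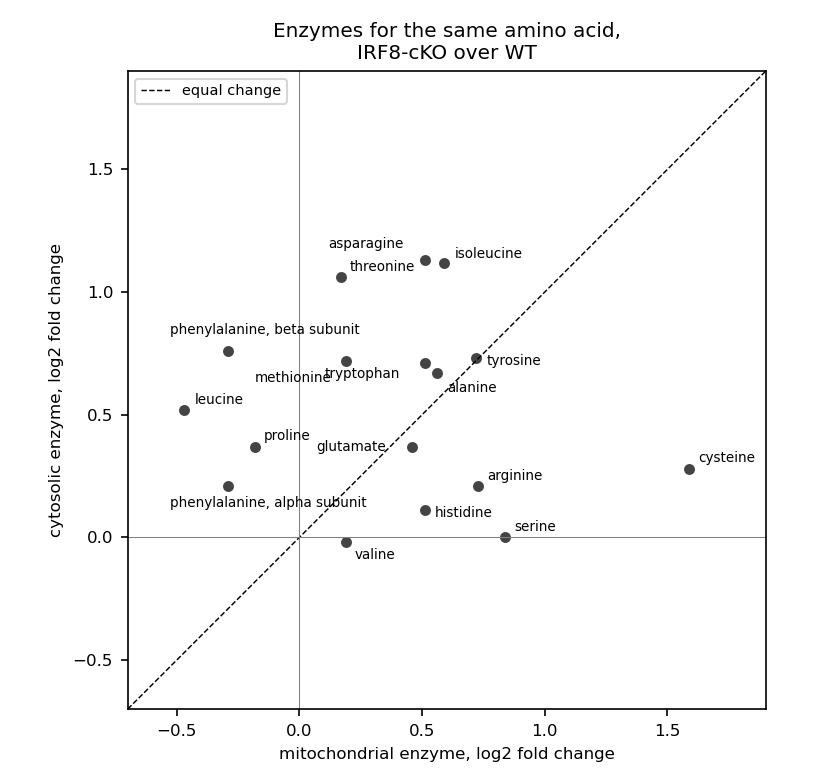
Log2 fold change (IRF8-cKO over WT) of the cytosolic enzyme against that of the mitochondrial enzyme for the same amino acid, 17 of the 18 pairings, with equal change as a dashed line. Cysteine lies far to the right (1.59 mitochondrial, 0.28 cytosolic), leucine to the left (-0.47 and 0.52), and tyrosine on the line (0.72 and 0.73).

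Genes that work beside the synthetases gave 0 calls too. Of 13 accessory genes of tRNA charging, 12 were tested, 10 had positive values and the median was 0.54. Without overlap 5 were higher and 1 lower, against 14.4% and 14.5% of all genes tested, of which 51.5% had positive values. Qrsl1 and Gatc encode subunits of the amidotransferase that makes mitochondrial glutaminyl-tRNA, for which mammals have no separate synthetase. Qrsl1 stood at 8.51, 8.51 and 9.31 CPM in IRF8-cKO livers, against 5.21, 3.19 and 2.66 CPM in WT livers (log2 fold change 1.25, SE 0.37, adjusted p = 0.0957), and Gatc had a log2 fold change of 0.97 (adjusted p = 0.120). Their partner Gatb overlapped, with a log2 fold change of 0.17. Of 11 mitochondrial translation factors tested, 11 had positive values, 0 passed and the median was 0.81. Without overlap 5 were higher (45.5%) and 0 lower, against 14.4% and 14.5% of all genes tested. The lowest p-values were those of the elongation factor genes Gfm2 (1.38, adjusted p = 0.0851) and Gfm1 (1.03, adjusted p = 0.0887). The 76 mitochondrial ribosomal protein genes tested had a median of 0.05 and 0 passing. Without overlap 7 were higher (9.21%) and 7 lower, against 14.4% and 14.5% of all genes tested. The 5 cytosolic elongation factors had a median of -0.18 and 0 passing, with Eef1b2 at -0.34 (adjusted p = 0.499) and Eef1g at 0.25 (adjusted p = 0.611).

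**Figure D5:**
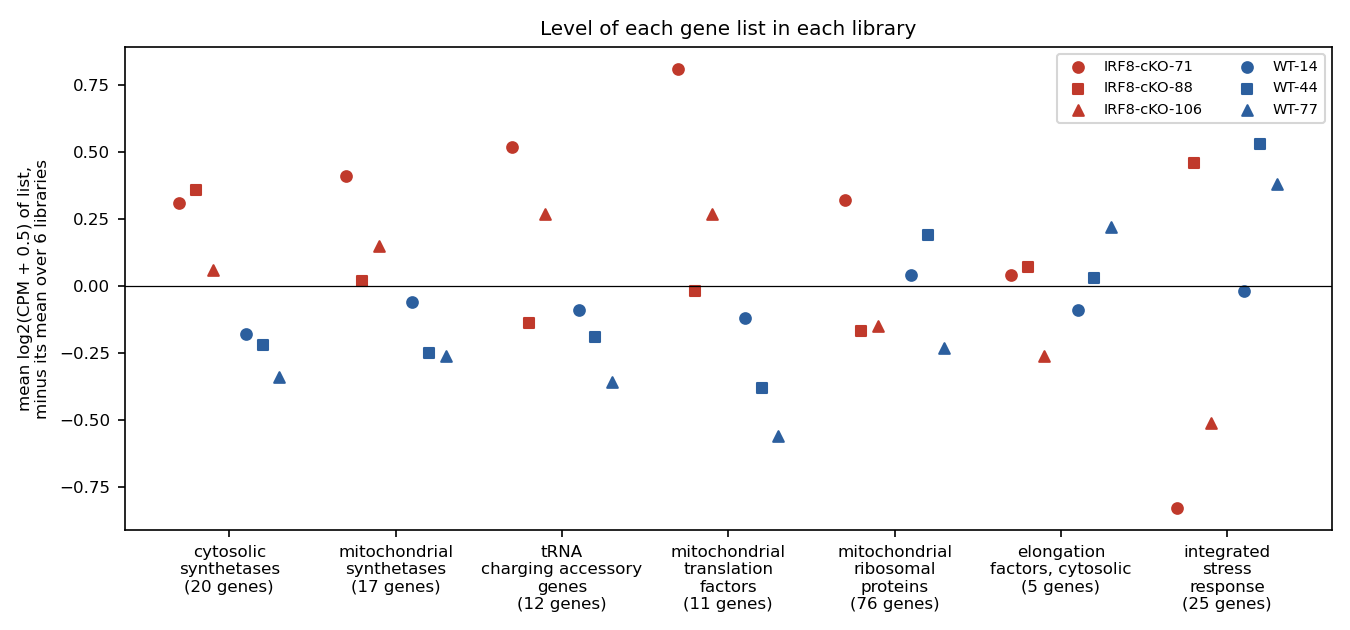
Mean level of each gene list in each library, as log2(CPM + 0.5) relative to the mean over the 6 libraries, red for IRF8-cKO and blue for WT. The 2 synthetase lists are separated by group, and so are the mitochondrial translation factors. Cytosolic values are 0.31, 0.36 and 0.06 in IRF8-cKO and -0.18, -0.22 and -0.34 in WT. The mitochondrial synthetases are separated narrowly, with 0.02 in IRF8-cKO-88 and -0.06 in WT-14. The integrated stress response list ranges from -0.83 in IRF8-cKO-71 to 0.53 in WT-44 with overlap.

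The integrated stress response list, to which ATF4 and its targets belong, had 9 positive and 16 negative values among the 25 of 28 genes tested. Of these 1 rose, 1 fell and 23 did not pass, and the median was -0.53, which became -1.08 without IRF8-cKO-88 and -0.25 without IRF8-cKO-71. Atf5, an ATF4-related factor, rose to 585, 228 and 150 CPM in IRF8-cKO livers, against 63.9, 66.3 and 67.4 CPM in WT livers (log2 fold change 2.28, SE 0.47, adjusted p = 0.0495). Ppp1r15a, which encodes the phosphatase subunit that ends the response, fell to 19.0 ± 6.63 CPM in IRF8-cKO livers, all at or under 24.7 CPM, against 85.7 ± 30.7 CPM in WT livers, all at or above 50.3 CPM (SD, n = 3 each; log2 fold change -2.17, SE 0.38, adjusted p = 0.0408). Both calls were lost without IRF8-cKO-106, without WT-44 and without WT-77, where the adjusted p was 0.0554, 0.204 and 0.208 for Atf5 and 0.0748, 0.176 and 0.192 for Ppp1r15a. Atf5 also missed the threshold without WT-14 (adjusted p = 0.0852), with RLE scaling (0.0510), with upper-quartile scaling (0.0511), in limma-voom (0.0526) and without robust shrinkage (0.0533), and Ppp1r15a with library totals (adjusted p = 0.0599). Atf4 itself stood at 136, 316 and 163 CPM in IRF8-cKO livers and at 217, 419 and 311 CPM in WT livers, with overlap (log2 fold change -0.62, SE 0.39, adjusted p = 0.344). Transcript level is an incomplete measure of ATF4, which is known to be controlled by translation. Asns, the asparagine synthetase gene and a classical ATF4 target, stood at 5.42 to 9.0 CPM in IRF8-cKO and 5.53 to 7.57 CPM in WT livers (log2 fold change 0.19, adjusted p = 0.764), and Ddit3 at 0.40 (adjusted p = 0.730). Among 10 genes of Myc and growth, 0 passed, 1 had a positive and 9 had negative values, and the median was -0.35. Myc stood at -2.08 (adjusted p = 0.0554) and Cad, the positive one, at 1.52 (adjusted p = 0.0719).

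Other features of the libraries moved with the groups, and their part in the synthetase values was not tested. Reads of the mitochondrial genome were 5.99% to 7.14% of all reads in IRF8-cKO livers and 7.19% to 20.2% in WT livers. With those genes taken out before scaling, the medians were 0.44 for cytosolic and 0.51 for mitochondrial synthetases and 0 of 39 passed. The 10 hepatocyte markers summed to 67800 to 81800 CPM in IRF8-cKO livers and 83200 to 122000 CPM in WT livers. Of the 10, 0 passed, 3 had positive and 7 negative values, from -1.14 to 0.78, and the median was -0.52. Without overlap 1 was higher and 4 lower, against 14.4% and 14.5% of all genes tested. The 2 with the lowest p were Ttr at -1.05 (adjusted p = 0.129) and Serpina1c at -1.14 (adjusted p = 0.133). Of 8 neutrophil markers tested 5 fell and 0 rose, with a median of -2.47, led by S100a8 at -2.57 and S100a9 at -2.37 (adjusted p = 0.0243 each) and Ltf at -4.27 (adjusted p = 0.0311). Without IRF8-cKO-106, 1 of 9 neutrophil markers tested was called lower, namely S100a8, and without WT-44 or without WT-77 0 of 8 were called. The summed level of the list, which weighs abundant genes most, overlapped, at 781 to 4650 CPM in IRF8-cKO and 1200 to 3530 CPM in WT livers. The mean log2 level of the 8 tested, relative to all 6 libraries, did not overlap. It was -0.95, -0.56 and -1.54 in IRF8-cKO and 0.81, 1.16 and 1.08 in WT livers. Of the 8, 7 were lower without overlap, against 14.5% of all genes tested, and 1 overlapped. Kupffer cell markers had a median of 0.97 with 0 of 10 passing and sums of 119 to 349 CPM in IRF8-cKO and 107 to 132 CPM in WT livers (Cd5l 1.37, adjusted p = 0.0784, and Adgre1 1.76, adjusted p = 0.0796). Of the 10, 10 had positive values, and 4 were higher and 0 lower without overlap, against 14.4% and 14.5% of all genes tested. Cholangiocyte markers had a median of -1.90 with 0 of 7 passing and sums of 149 to 258 CPM in IRF8-cKO and 465 to 948 CPM in WT livers (Krt19 -3.47, adjusted p = 0.0551, and Epcam -2.48, adjusted p = 0.0602). Of the 7, 1 had a positive and 6 had negative values. Without overlap 0 were higher and 6 lower, against the same shares of all genes tested. Endothelial markers had 5 positive and 3 negative values from -1.21 to 1.63, with 2 higher and 2 lower at an unadjusted p under 0.05, a median of 0.09, 0 of 8 passing and sums of 134 to 178 CPM in IRF8-cKO and 136 to 222 CPM in WT livers (Cdh5 -1.21, adjusted p = 0.0700, and Lyve1 -1.09, adjusted p = 0.131). T and NK cell markers summed to under 6 CPM in every library, 1 of 8 was tested (Cd8a 1.43, adjusted p = 0.342), and no marker of any of these lists was at 0 in all 6 libraries.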

How the data were processed

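RNA was measured in 6 libraries of injured mouse liver, made with an NEBNext Ultra kit after Trizol extraction, per the labels' protocols. HISAT2 2.0.5 and featureCounts 1.5.0-p3 are listed in the submitters' processing notes, as is mm10. The deposited table holds raw counts, not normalised by the authors, and gene lengths. The sources used here do not state the strand setting, the treatment of multiply mapped reads or the annotation release. Of the 39 genes, 36 have the same start and end in GENCODE M21 (GRCm38), and 16 share exon bases there with another gene.

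Groups and columns were taken from the titles. No libraries were duplicates (lowest chi-square per df within a group 63.1). Genes were filtered by filterByExpr (minimum count 10, minimum total 15), scaled by TMM (factors 0.786 to 1.32) and compared with a robust quasi-likelihood fit in edgeR 4.0.16 (R 4.3.3), two-sided, group as the only term, Benjamini-Hochberg adjustment over 13134 genes and a threshold of 0.05. CPM are scaled by the TMM-adjusted library total. Fold changes are IRF8-cKO over WT, and the SE is the absolute log2 fold change over the square root of F. The fit was tested on simulated data, in which most of the changes put in did not pass the threshold. Lists are described by counts and medians, with no test. Promoter sequences are from RefSeq.

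Alternatives were other scalings and filters, DESeq2 1.42.0, limma-voom (3.58.1), no robust shrinkage, a gene length offset (lowess span 0.5) and each library left out. Removal of the mitochondrial genome, removal of Lars2, the counts of synthetases without overlap and with positive values under each setting, and the calls of Atf5, Ppp1r15a and neutrophil markers under each setting were added after the data were seen. The members, lists and motifs were chosen with earlier results of these data known. By rule, full values are given for the 6 cytosolic and 4 mitochondrial genes with the lowest p and for Wars, Eprs, Gars, Kars, Qars, Aimp1 and Aimp2. From each other list the rule names up to 3 genes that passed or else the 2 with the lowest p, and always Atf4, Ddit3 and Asns. For 1 mitochondrial synthetase and 1 gene of another list, which stay in all counts, single values are not reported here. Values of other genes were chosen after they were seen.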

Additional observations from a re-analysis of the deposited data

How the results depend on the processing

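Of 624 values of the 39 genes under 16 alternatives, 596 kept their direction and their side of the threshold, and 8 passed it, namely Cars2, Iars, Nars and Tars with DESeq2 and without the low-count filter, where 4 of 39 genes were called. Under every other alternative 0 of 39 were called. The number of all genes called was 82 with library totals, 1723 without the low-count filter, 1423 with DESeq2, 111 with limma-voom, 98 with a gene length offset and 0 to 1205 with 1 library left out. With library totals the median log2 fold change was 0.66 for cytosolic synthetases, 0.74 for mitochondrial ones, 0.66 for the complex and 0.87 for ATF4 targets, and the last was 0.54 with the length offset. With 1 library left out the medians ran from 0.27 to 0.56 for mitochondrial synthetases, 0.53 to 0.79 for ATF4 targets and -1.08 to -0.25 for the stress response list. The cytosolic minus the mitochondrial median, -0.06, then ran from -0.21 to 0.13, above 0 without IRF8-cKO-71 and without IRF8-cKO-106, and it was 0.02 with the length offset and all 6 libraries.

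Reversed values belonged to 8 genes. Sars was -0.001 with RLE scaling and with DESeq2, -0.0017 with upper-quartile scaling and -0.0892 with the length offset. Vars was 0.2324 with library totals and 0.0083 without the filter, and Aimp1 was -0.0519 with the length offset. With 1 library left out, log2 fold changes ran from -0.1283 to 0.1167 for Sars, -0.0967 to 0.3655 for Rars, -0.1384 to 0.1343 for Vars and -0.0736 to 0.3005 for Hars. They ran from -0.0686 to 0.2523 for Aimp1, -9e-04 to 0.3603 for Tars2, -0.0462 to 0.5209 for Vars2 and -0.4639 to 0.2048 for Pars2. With 1 library left out the log2 fold change moved by over 1.5 times or turned in 22 of the 39 genes, 2 of them (Aars and Nars2) among the 17 higher without overlap, and in the other 17 it did neither. The cause of these changes was not tested. No paired analysis was possible because the groups share no replicate number. With 41 to 300 reads, Cars2 rests on fewer reads than most cytosolic genes.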
